A study of Homo sapiens with 10 samples.

Results

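The comparison described here is that of HaCaT keratinocytes 3 h after 12 Gy of ionising radiation with HaCaT keratinocytes that were not irradiated, both kept with vehicle and without LBP for 24 h beforehand. It was followed across every expressed gene in 5 of the 10 libraries of the series. Irradiated vehicle cells gave 3 libraries and vehicle cells gave 2, assigned to their groups by the labels. HaCaT is a spontaneously immortalised line of human skin keratinocytes, and the labels give the genotype of all groups as WT and the tissue as mucosa. The other 5 libraries come from cells that received LBP, a preparation from the goji plant Lycium barbarum, in place of vehicle: 3 irradiated LBP and 2 LBP libraries. They share no library with the comparison and serve as a second set of irradiated and non-irradiated cells. Whether the numbered libraries of one group came from separate cultures is not said in the labels. The p-values therefore measure the spread between these libraries, which may be technical.

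Ionising radiation breaks DNA, and cells that carry breaks hold at checkpoints, among them the G2 checkpoint at the border of mitosis. Genes for entry into mitosis and for building the spindle, the kinetochore and the cleavage furrow are transcribed late in the cycle. A pair of promoter elements is known for them: the cell cycle homology region (CHR), bound by the MuvB complexes with the DREAM repressor, B-MYB or FOXM1, and CCAAT boxes, bound by NF-Y. Genes of the S phase are known instead for E2F elements. In bulk RNA, fewer cells in a phase and less RNA of a gene per cell cannot be told apart.

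Total counts ran from 39999300 to 54318209 in irradiated vehicle libraries and were 38107258 and 62986831 in vehicle libraries. Of 22003 features, 14799 had enough counts to be tested. Mitochondrially encoded RNA took 3.09, 3.04 and 1.85% of counts in irradiated vehicle cells and 2.97 and 2.54% in vehicle cells. The keratin gene KRT5 stood between 2759 and 3143 CPM (counts relative to the TMM-scaled library total) in irradiated vehicle cells and at 3113 and 3099.8 CPM in vehicle cells. TP63, the transcription factor of stratified epithelia, had 197 to 209 CPM in irradiated vehicle cells and 210 and 215 CPM in vehicle cells. Markers of other cells were low: 8 fibroblast markers summed to 5.44 to 6.88 CPM in irradiated vehicle cells and 6.35 to 6.61 CPM in vehicle cells, with DCN at 0 in all 5 libraries. The 9 leukocyte markers summed to 13.3 to 15.2 CPM in irradiated vehicle cells and 13.3 to 14.1 CPM in vehicle cells. For 7 endothelial markers the sums were 2.89 to 3.68 CPM in irradiated vehicle cells and 2.03 to 2.47 CPM in vehicle cells. For 7 melanocyte markers they were 8.25 to 9.81 CPM and 7.97 to 8.11 CPM, in the same order. The leukocyte MS4A1, the endothelial PECAM1 and the melanocyte TYR were at 0 in all 5 libraries. The 12 simple and mucosal epithelial markers summed to 7794 to 8655 CPM in irradiated vehicle cells and 8348 to 8696 CPM in vehicle cells. Of these, 10 had enough counts to be tested, and CDX2 and VIL1 did not. A high sum thus need not mean that each marker was high, and the markers alone do not settle the tissue label.

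By edgeR's quasi-likelihood test with Benjamini-Hochberg adjustment over the 14799 features, 65 features (0.439%) passed at an adjusted p under 0.05. Of these, 60 (0.405%) were lower in irradiated vehicle cells and 5 (0.0338%) were higher. At an unadjusted p under 0.05, which 6.91% of features reached, 3.59% were lower and 3.32% higher, and over all features the median log2 fold change of irradiated vehicle over vehicle was 0.00. The changes were moderate in size. Of the 65 features, 14 changed by at least 2-fold, and the median log2 fold change of the 60 lower ones was -0.68. In none of the 65 did the groups overlap, which held for 27.6% of all features. With 1 library left out, the count was 32, 33 or 35 without irradiated vehicle replicate 1, 2 or 3, and 28 or 25 without vehicle replicate 1 or 2.

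**Figure D1:**
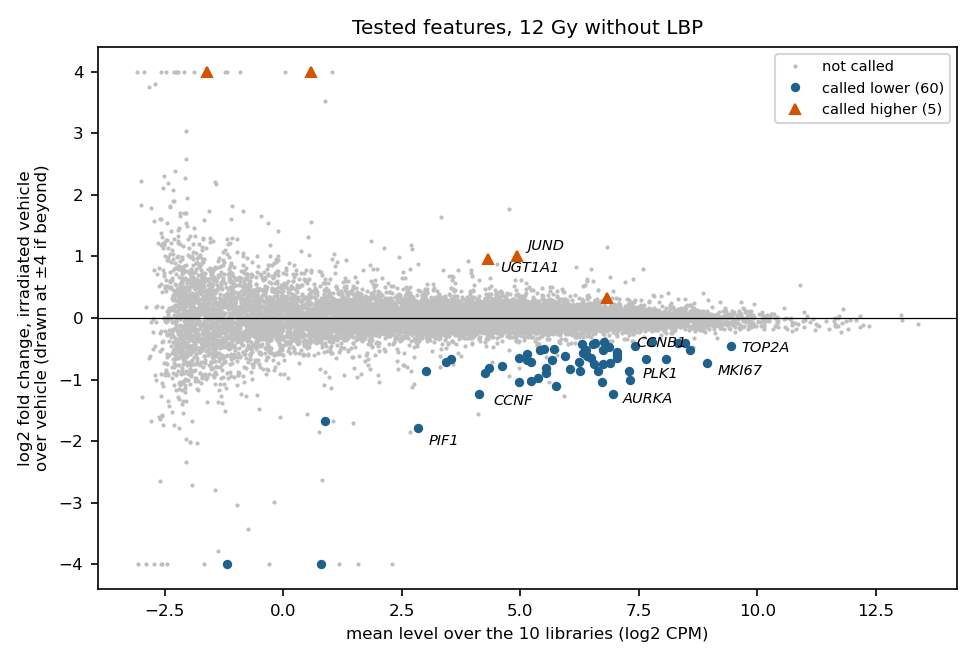
Log2 fold change of irradiated vehicle over vehicle (vertical axis, drawn at the edge where it lies beyond) against the mean level over the 10 libraries (horizontal axis, log2 CPM) for 14799 tested features. Blue circles are the 60 called lower features, such as AURKA at -1.24 and MKI67 at -0.73, and orange triangles the 5 called higher ones, JUND and UGT1A1 among them.

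Of the 60 lower features, 45 belong to 7 lists of mitotic genes: kinases with their regulators, cyclins, kinesins, spindle and cytokinesis, kinetochore, the anaphase-promoting complex with securin, and condensin with chromosome proteins. These lists were written with earlier results of these data known, so their shares are a description and not a test. They hold 128 tested genes together, of which 45 were lower and none was higher. Over all features 0.405% were lower, the share that stands beside the count of each list below. Their median log2 fold change was -0.33 and 106 of 128 were below 0, against 49.4% of all features. In 90 of 128 every irradiated vehicle library was lower than both vehicle libraries, against 13.9% of all features. Relative to the vehicle mean, the median of the 128 genes was -0.30, -0.30 and -0.34 on the log2 scale in irradiated vehicle replicates 1, 2 and 3, so all 3 libraries stood on the same side. The LBP libraries, which were not irradiated, stood at -0.14 and -0.11 on this scale, with 94 of 128 genes below 0 in each. Irradiated LBP libraries stood at -0.45, -0.33 and -0.41. The 45 became 26, 26 and 30 without irradiated vehicle replicate 1, 2 or 3, and 19 and 21 without vehicle replicate 1 or 2.

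The sequences before the transcription start show what many of the lower genes have in common. RefSeq promoters on GRCh38.p14, from 250 bases before to 50 bases after the start, were matched for 49 of the 60 features. Shown are 6 lower genes whose last 120 bases before the start hold both kinds of element, with at most 28 of these bases inside an exon in GENCODE v29. Capitals mark TTTGAA, which are letters of the CHR and read TTCAAA where it lies on the other strand. They also mark CCAAT, which reads ATTGG there.
PIF1: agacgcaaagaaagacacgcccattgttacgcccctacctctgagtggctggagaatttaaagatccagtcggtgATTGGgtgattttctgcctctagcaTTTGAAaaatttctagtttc
ASPM: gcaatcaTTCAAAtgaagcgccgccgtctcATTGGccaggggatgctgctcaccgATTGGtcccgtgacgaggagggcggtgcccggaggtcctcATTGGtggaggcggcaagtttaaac
MKI67: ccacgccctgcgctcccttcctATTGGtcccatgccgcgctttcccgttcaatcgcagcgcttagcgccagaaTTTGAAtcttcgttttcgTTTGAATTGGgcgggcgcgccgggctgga
CKS2: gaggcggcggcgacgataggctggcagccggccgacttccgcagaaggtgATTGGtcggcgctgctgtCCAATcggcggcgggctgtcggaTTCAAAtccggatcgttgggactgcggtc
CKAP5: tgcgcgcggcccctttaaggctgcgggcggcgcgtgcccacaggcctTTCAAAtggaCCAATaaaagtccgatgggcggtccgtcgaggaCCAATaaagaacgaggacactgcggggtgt
KIF4A: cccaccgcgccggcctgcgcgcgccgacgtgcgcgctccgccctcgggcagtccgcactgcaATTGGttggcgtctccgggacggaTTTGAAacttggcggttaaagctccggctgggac

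These stretches are read along the gene's own strand. They lie at chr15:64825648-64825767 on the minus strand for PIF1, chr1:197146670-197146789 on the minus strand for ASPM and chr10:128126424-128126543 on the minus strand for MKI67. Those of CKS2, CKAP5 and KIF4A lie at chr9:89311075-89311194 on the plus strand, chr11:46846281-46846400 on the minus strand and chrX:70289984-70290103 on the plus strand. All are upstream of the RefSeq start, and 21 bases for PIF1, 25 for ASPM, 28 for CKAP5 and 14 for KIF4A are exonic in GENCODE v29. The KIF4A stretch also lies within the span of PDZD11 on the other strand. Counted from the start, TTTGAA begins at -20 in PIF1 and -34 in KIF4A, its other-strand form begins at -29 in CKS2, -73 in CKAP5 and -113 in ASPM, and MKI67 holds it at -47 and again at -29, where its last letter is also the first of ATTGG. Among other lower genes, it begins at -29 in PLK1 and -23 in CDCA8, and farther away at -111 in HJURP, -145 in NCAPD2 and -194 in TOP2A.

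Among the 49 promoters of lower genes, 33 (67.3%) held TTTGAA or TTCGAA on either strand, against 11.1% of the 10709 tested genes with a promoter and 16.6% of all 27305 promoters of the table. CCAAT on either strand was in 37 (75.5%), against 36.7% and 35.7%. Both kinds of element were in 30 (61.2%), against 4.82% and 6.58%. The 69 promoters of genes on the mitotic lists that did not pass the test held TTTGAA or TTCGAA in 56.5% and both kinds in 31.9%, so the letters are common to mitotic genes and not to the called ones alone. Letters of E2F elements were rarer: TTTGGCGC was in 2.04% of promoters of lower genes, 17.6% of the 34 promoters of S phase genes and 1.09% of tested genes, and TTCCCGCC was in 2.04%, 29.4% and 5.12%. A match is a description of these letters, not evidence that a factor was bound. AURKA was not among the matched genes.

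The kinases that carry cells into and through mitosis were among the most changed. AURKA, the kinase of spindle poles and of mitotic entry, stood at 92.3, 83.9 and 81.9 CPM in irradiated vehicle libraries, against 205.78 and 200.01 CPM in vehicle libraries. All irradiated libraries lay below both others, at a log2 fold change of -1.24 ± 0.09 (standard error, SE; adjusted p = 0.000163 by edgeR's quasi-likelihood test). AURKA lies on chromosome 20 (56369389-56392337, minus strand of GRCh38) and PLK1, the polo-like kinase that AURKA activates, on chromosome 16 (23677656-23690367, plus strand). PLK1 had 129, 117 and 127 CPM in irradiated vehicle libraries and 247 and 250.5 CPM in vehicle libraries, a fold of 0.4998 with an SE of 0.13 on the log2 scale. BORA, the cofactor through which AURKA acts on PLK1, had 17.7, 20.1 and 16.99 CPM in irradiated vehicle libraries and 30.1 and 32.7 CPM in vehicle libraries (-0.78 ± 0.13). Activator, cofactor and substrate were thus lower in each of the 3 irradiated libraries. Of 22 tested members of the kinase list 8 were lower and none higher, with a median of -0.35, against 0.405% lower over all features. The chromosomal passenger genes CDCA8 (-0.83 ± 0.08) and INCENP (-0.75 ± 0.09) and the spindle checkpoint kinases BUB1B (-0.65), TTK (-0.55) and BUB1 (-0.46) were the others.

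Not every kinase gene of this list moved with them. Named after their values were seen, CDK1, the catalytic partner of the mitotic cyclins, stood at -0.08 ± 0.07 and AURKB, the kinase that CDCA8 and INCENP accompany, at -0.16 ± 0.13, and neither passed. CDC25A, a phosphatase that activates CDKs, had 0.25 ± 0.09, while CDC25B and CDC25C, its relatives at mitotic entry, had -0.34 ± 0.09 and -0.35 ± 0.11, all without passing. WEE1, the kinase that inhibits CDK1, had -0.41 ± 0.08 (adjusted p = 0.0524 by edgeR's quasi-likelihood test).

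Of 4 mitotic cyclins 3 were lower, against 0.405% of all features. CCNF, encoding cyclin F, a substrate receptor of the SCF ubiquitin ligase, had 38.4, 36.8 and 39.8 CPM in irradiated vehicle libraries, against 83.8 and 81.1 CPM in vehicle libraries (-1.11 ± 0.09, adjusted p = 0.000163 by edgeR's quasi-likelihood test). CCNB1, the cyclin of mitotic CDK1, had 230.2, 228 and 233 CPM in irradiated vehicle libraries and 369.8 and 361 CPM in vehicle libraries (-0.67 ± 0.08). The replicate values of both genes lay close together within a group and far apart between groups. CCNA2, the cyclin of S and G2, was lower as well (-0.39 ± 0.07), and CCNB2 had -0.34 ± 0.07 and did not pass (adjusted p = 0.0621), although it did in 4 of 23 alternative settings.

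The 5 G1 and S cyclins all had positive values and none passed, with a median of 0.25. In cells that received LBP their median was 0.10 and 2 of 5 were below 0. CCNE2, encoding a cyclin E, had 16.9, 20.5 and 16.9 CPM in irradiated vehicle libraries and 9.32 and 11.6 CPM in vehicle libraries, a difference of 0.78 ± 0.19 (adjusted p = 0.17 by edgeR's quasi-likelihood test). The groups of CCNE2 did not overlap, and it passed in 3 of 23 alternative settings, DESeq2 among them. CCNE1 had 18.3, 18.3 and 18.9 CPM in irradiated vehicle libraries and 13.2 and 13.9 CPM in vehicle libraries (0.45 ± 0.13).

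**Figure D2:**
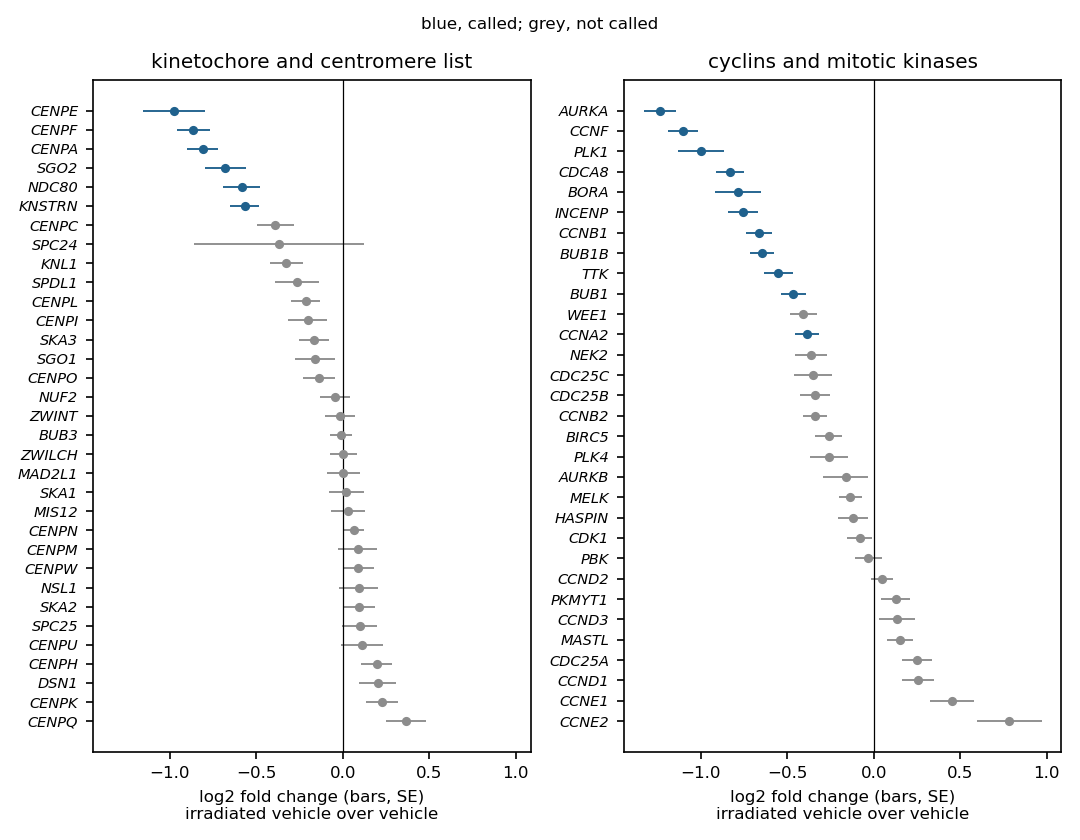
Log2 fold change of irradiated vehicle over vehicle, with bars of 1 SE, for the tested genes of the kinetochore list (left) and of the cyclin and mitotic kinase lists (right). Blue points passed the test and grey ones did not: AURKA at -1.24, CCNF at -1.11 and CDCA8 at -0.83 lie toward one end and CCNE1 at 0.45 and CCNE2 at 0.78 at the other, while the kinetochore genes run from CENPE at -0.98 to CENPQ at 0.36.

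Kinesins are motors that move along microtubules. Of 12 mitotic kinesins 7 were lower, all 12 were below 0 and the median was -0.62, against 0.405% lower and a median of 0.00 over all features. KIF18A, which damps chromosome movement at metaphase, had 25.0, 24.9 and 19.2 CPM in irradiated vehicle libraries, against 44.0 and 50.6 CPM in vehicle libraries (-1.04 ± 0.11, adjusted p = 0.000937 by edgeR's quasi-likelihood test). Its 3 irradiated libraries lay below both vehicle libraries. KIF20A, a motor of cytokinesis, had -0.72 ± 0.11, KIF18B -0.71 ± 0.08, the minus-end motor KIFC1 -0.71 ± 0.08, the centralspindlin motor KIF23 -0.67 ± 0.08, the microtubule depolymerase KIF2C -0.64 ± 0.09 and the chromosome-arm motor KIF4A -0.40 ± 0.07. KIF20A overlaps BRD8, another lower gene, by 268 bases and CDC23 by 68 bases on the opposite strand. No source used here states whether counting used strand, so reads of those stretches cannot be assigned. KIF11, the motor that separates spindle poles, had -0.42 ± 0.10 without passing and was named after its value was seen.

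Genes of the spindle and of cytokinesis gave the most calls. Of 26 tested members 16 were lower, all 26 were below 0 and the median was -0.47. Over all features 0.405% were lower and 49.4% were below 0. PSRC1, a microtubule-binding protein, had 12.4, 10.7 and 12.5 CPM in irradiated vehicle libraries and 29.7 and 26.4 CPM in vehicle libraries (-1.24 ± 0.19). FAM83D, which brings casein kinase 1 to the spindle, had 78.0, 77.1 and 79.1 CPM in irradiated vehicle libraries and 166 and 153 CPM in vehicle libraries (-1.03 ± 0.09). GTSE1, a microtubule-associated protein of G2 and mitosis, had 28.5, 28.4 and 28.3 CPM in irradiated vehicle libraries and 58.8 and 56.9 CPM in vehicle libraries (-1.02 ± 0.09). In each of these genes the groups were far apart, and in GTSE1 the 3 irradiated libraries differed by less than 1 CPM.

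ASPM, a spindle pole protein, had 87.7, 86.8 and 64.5 CPM in irradiated vehicle libraries and 147 and 142 CPM in vehicle libraries (-0.86 ± 0.11). Irradiated vehicle replicate 3 lay below the other 2 irradiated libraries. DEPDC1 had 34.9, 38.3 and 32.5 CPM in irradiated vehicle libraries and 65.8 and 64.7 CPM in vehicle libraries (-0.89 ± 0.10), and GAS2L3, a linker of actin and microtubules, had 13.3, 13.9 and 14.8 CPM in irradiated vehicle libraries and 27.9 and 24.2 CPM in vehicle libraries (-0.90 ± 0.15). Smaller changes were those of CKAP2 (-0.74), CKAP2L (-0.61), the GTPase-activating protein ARHGAP11A (-0.59), the other centralspindlin subunit RACGAP1 (-0.55), the AURKA activator TPX2 (-0.52), DLGAP5 (-0.52), TACC3 and HMMR (-0.43 each), the microtubule polymerase CKAP5 (-0.41) and the midzone bundler PRC1 (-0.39).

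**Figure D3:**
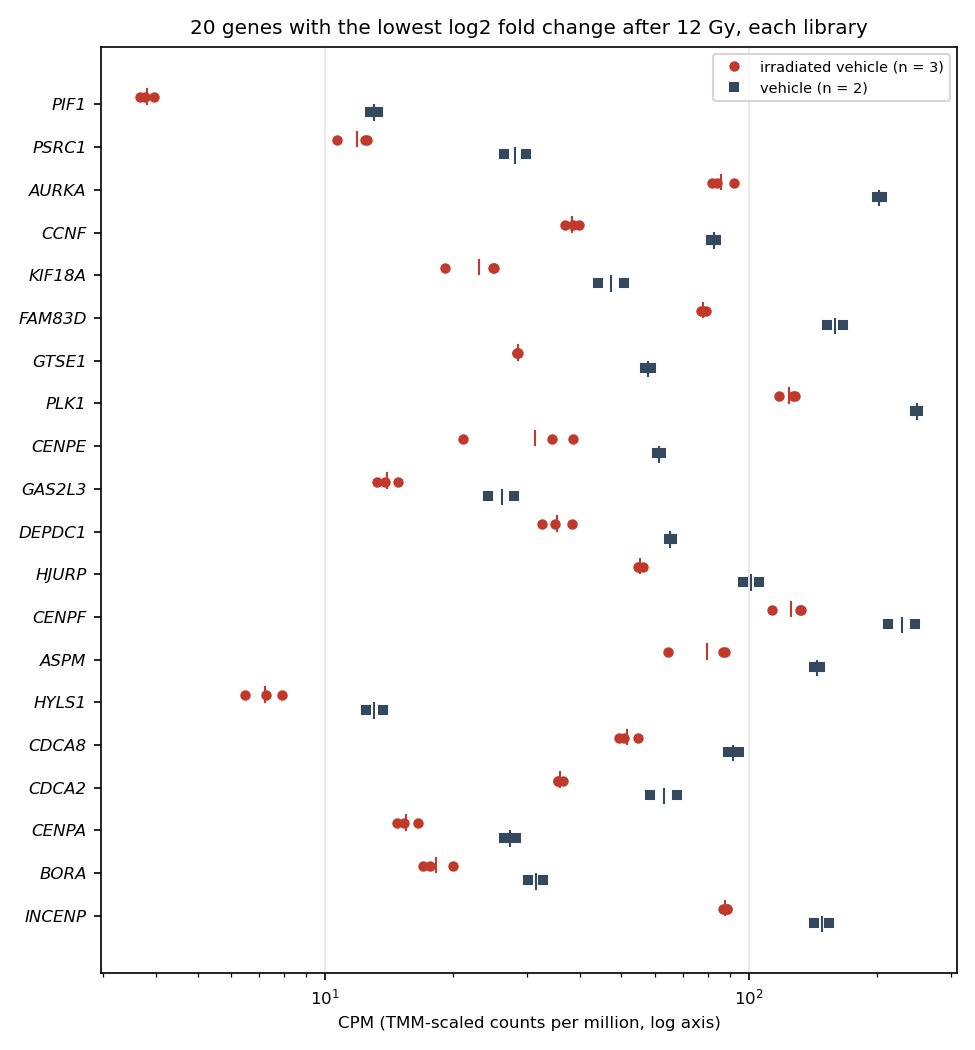
Level in each library (CPM, log axis) of the 20 genes with the lowest log2 fold change among called genes with a mean of at least 1 log2 CPM. Circles are the 3 irradiated vehicle libraries, squares the 2 vehicle libraries and vertical ticks the group means: in all 20 genes the circles lie left of the squares, as for PIF1 (3.66 to 3.96 CPM against 12.8 and 13.3 CPM), and CENPE and ASPM have 1 irradiated library below the other ones.

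The kinetochore list split. Of 33 tested members, 6 were lower, against 0.405% of all features. In all, 18 were below 0 and the median was -0.02, close to that of all features. CENPE, the kinetochore motor that brings chromosomes to the metaphase plate, had 34.3, 38.4 and 21.1 CPM in irradiated vehicle libraries and 60.7 and 62.1 CPM in vehicle libraries (-0.98 ± 0.18, adjusted p = 0.0363 by edgeR's quasi-likelihood test). Irradiated vehicle replicate 3 lay well below the other 2, and the call was lost in 10 of 23 alternative settings. CENPF, of the outer corona, had 132, 132 and 113 CPM in irradiated vehicle libraries and 246 and 212 CPM in vehicle libraries (-0.86 ± 0.09). CENPA, the histone H3 variant that marks centromeres, had 16.6, 15.3 and 14.7 CPM in irradiated vehicle libraries and 28.2 and 26.4 CPM in vehicle libraries (-0.81 ± 0.09). The span of CENPA shares 16943 bases with SLC35F6 on the same strand. The cohesin protector SGO2 (-0.68), the microtubule-binding NDC80 (-0.59) and KNSTRN (-0.57) were also lower. On the opposite strand, SGO2 shares 9777 bases with KCTD18 and, among lower genes of other lists or none, BORA 4030 with DIS3. CKAP2L shares 6273 with NT5DC4 and TICRR 22268 with KIF7, also on the opposite strand. The part of read division in the values of these genes and CENPA was not tested.

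Among the other 27 kinetochore genes, 15 had positive values. Named after their values were seen, CENPQ, CENPK and CENPH, subunits of the inner kinetochore that stays on centromeres through the cycle, had 0.36 ± 0.12, 0.22 ± 0.09 and 0.20 ± 0.09, and NUF2, the direct partner of NDC80, had -0.05 ± 0.09. None of these passed. The median of the list in cells that received LBP was -0.20, with 30 of 33 below 0, and no kinetochore gene passed the test of the difference between the arms.

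Chromosome structure gave 4 lower genes of 13: CDCA2, a phosphatase-targeting subunit of chromatin, at -0.82 ± 0.09, the proliferation marker MKI67, which coats mitotic chromosomes, at -0.73 ± 0.09, the topoisomerase TOP2A at -0.46 ± 0.07 and the condensin subunit NCAPD2 at -0.41 ± 0.08. MKI67 had 417, 430.0 and 386 CPM in irradiated vehicle libraries, against 732 and 629 CPM in vehicle libraries, without overlap. Of the anaphase-promoting complex and its partners, UBE2C, its ubiquitin-conjugating enzyme, was the 1 lower gene of 18 (-0.45 ± 0.08). CDC20, its mitotic activator, had 310.1, 306 and 343 CPM in irradiated vehicle libraries and 423 and 425 CPM in vehicle libraries (-0.41 ± 0.10, adjusted p = 0.174). The groups of CDC20 did not overlap, and it passed in 3 of 23 alternative settings. ESPL1, the separase, had -0.52 ± 0.10 (adjusted p = 0.0534) and passed in 10 of 23 alternative settings.

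Outside the 7 lists, 15 features were lower, and many of them have roles in the same phases. PIF1, a DNA helicase, had 3.96, 3.66 and 3.76 CPM in irradiated vehicle libraries and 12.8 and 13.3 CPM in vehicle libraries (-1.78 ± 0.16, adjusted p = 0.000359 by edgeR's quasi-likelihood test). HJURP, the chaperone that loads CENPA, had 56.4, 55.1 and 54.8 CPM in irradiated vehicle libraries and 105 and 96.6 CPM in vehicle libraries (-0.87 ± 0.08). The groups of both were well separated. CKS2, a small CDK-binding protein, had -0.62 ± 0.10, the ubiquitin ligase G2E3 -0.52 ± 0.09, the chromatin protein HMGB2 -0.52 ± 0.10, the centriole duplication factor STIL -0.51 ± 0.08 and the replication initiation factor TICRR -0.50 ± 0.09. TRIM59 had -0.68 ± 0.10, BRD8 -0.65 ± 0.10 and HYLS1, a centriole protein, -0.86 ± 0.15. HYLS1 shares 7164 bases with PUS3 on the opposite strand. ARHGAP11B (-0.71 ± 0.11) is a near copy of ARHGAP11A, so the division of reads between them is uncertain.

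Others were MSTRG.7724, an assembled locus without a gene name (-0.66 ± 0.12), and AC093525.2 and RPL36A-HNRNPH2, which overlap neighbouring genes. AC093525.2 and RPL36A-HNRNPH2 had 0 counts in all 3 irradiated vehicle libraries, against 0.61 and 2.64 CPM and 1.82 and 1.16 CPM in vehicle libraries. With 3 counts in each library taken as the limit of detection, AC093525.2 was at least 25.3-fold lower in irradiated vehicle cells and RPL36A-HNRNPH2 at least 23.2-fold lower. With 6 counts, the limit if both mates of a pair were counted, these bounds were 12.7 and 11.6. The bound of AC093525.2 rested on vehicle replicate 2, since at 3 counts it was 9.45 without that library and 41.2 without vehicle replicate 1. Its call was lost in 9 of the 21 alternative settings that gave it a value, and that of RPL36A-HNRNPH2 in 11 of 23. The part of read division among overlapping genes in these values was not tested.

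The genes for the regulators of this program had small values. Of 19 cell cycle transcription factor genes none passed and the median was 0.03. FOXM1, the activator of G2 and M genes, had 218, 212 and 215 CPM in irradiated vehicle libraries and 258 and 233 CPM in vehicle libraries (-0.19 ± 0.07, adjusted p = 0.599 by edgeR's quasi-likelihood test). E2F1 had 0.26 ± 0.10, and the MuvB subunit gene LIN54 had 0.17 ± 0.10. None of the 39 S phase genes, CCNE1 and CCNE2 among them, passed, and their median was 0.02, with CDC6 at 0.19 ± 0.07 and CHAF1A at 0.21 ± 0.07. In 15 of the 39 every irradiated vehicle library was higher than both vehicle libraries, against 13.8% of all features. In 4 every one was lower, against 13.9%. In cells that received LBP, 25 of the 39 were below 0 and their median was -0.05. Of 56 replication-dependent histone genes, 31 were tested and none passed, with a median of -0.40 and 26 below 0. H2AC6, the histone gene with the smallest p, had 6.80, 6.64 and 7.10 CPM in irradiated vehicle libraries and 10.3 and 9.60 CPM in vehicle libraries (-0.54 ± 0.13, adjusted p = 0.219).

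**Figure D4:**
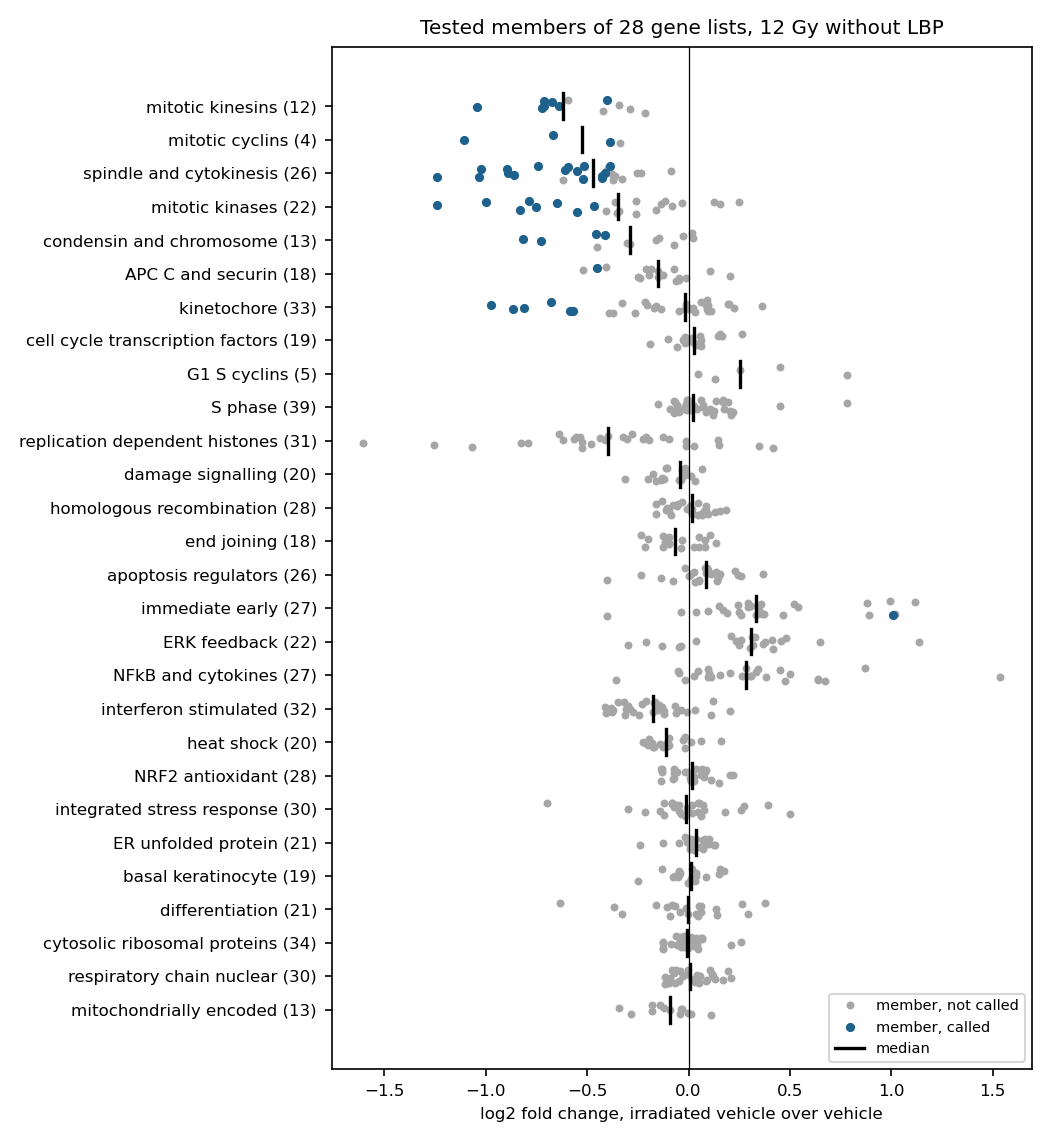
Log2 fold change of irradiated vehicle over vehicle for each tested member of 28 gene lists, with the number tested in brackets. Each dot is a gene, blue if it passed the test, and the black bar is the list median: the medians of the kinesin, mitotic cyclin, spindle and kinase lists lie at -0.62, -0.53, -0.47 and -0.35, and that of the S phase list at 0.02.

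The 5 features that were higher were of mixed kinds. JUND, a member of the AP-1 transcription factors, had 37.4, 36.1 and 36.4 CPM in irradiated vehicle libraries, against 16.4 and 19.8 CPM in vehicle libraries (1.01 ± 0.19, adjusted p = 0.0424 by edgeR's quasi-likelihood test). UGT1A1, an enzyme that conjugates bilirubin, had 24.6, 23.3 and 26.4 CPM in irradiated vehicle libraries and 12.7 and 12.9 CPM in vehicle libraries (0.95 ± 0.17, adjusted p = 0.0275). The groups of both genes were separate. The calls were lost in 9 of 23 alternative settings for JUND and 6 for UGT1A1.

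UGT1A1 (GRCh38 chromosome 2, 233760248-233773299, plus strand) shares its last exons with the other UGT1A genes. UGT1A5, from the same locus, had 0.39, 0.00 and 0.13 CPM in irradiated vehicle libraries but 0.18 and 24.9 CPM in vehicle libraries, so 1 vehicle library held nearly all its counts. UGT1A3 had 3.46, 12.6 and 16.2 CPM in irradiated vehicle libraries and 21.2 and 20.7 CPM in vehicle libraries. Levels thus varied between the vehicle libraries for UGT1A5 and between the irradiated vehicle libraries for UGT1A3. The part of read division among these genes in the change of UGT1A1 was not tested. A further 2 higher features, AC135050.2 and AC008982.1, had 2.73, 2.43 and 2.60 CPM and 0.54, 0.72 and 0.61 CPM in irradiated vehicle libraries and 0 counts in both vehicle libraries. AC135050.2 was at least 40.9-fold higher in irradiated vehicle cells and AC008982.1 at least 9.81-fold higher, by the same limit of 3 counts, and the bounds were 20.4 and 4.91 with 6. Both overlap protein-coding genes on the same strand, AC135050.2 those of PRSS53 and VKORC1 and AC008982.1 those of HNRNPL and ECH1. In cells that received LBP, AC135050.2 had 2.12, 1.85 and 0.39 CPM in irradiated LBP libraries and 2.16 and 0.40 CPM in LBP libraries. Its level thus varied widely between libraries of the same group. The call of AC135050.2 was lost in 6 of 23 alternative settings and that of AC008982.1 in 2 of the 21 that gave it a value. The part of read division in these values was not tested.

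CDKN1A, GADD45A, MDM2, PLK2, PLK3 and BTG2, which DNA damage is known to induce in many cells, did not pass. CDKN1A, the p21 inhibitor of CDKs, had 136, 139.9 and 159 CPM in irradiated vehicle libraries and 108 and 128 CPM in vehicle libraries (0.30 ± 0.21, adjusted p = 0.842 by edgeR's quasi-likelihood test). GADD45A, a growth arrest gene, had 91.2, 102 and 99.1 CPM in irradiated vehicle libraries and 54.6 and 73.3 CPM in vehicle libraries (0.61 ± 0.22, adjusted p = 0.607). Both had groups that did not overlap, and in both the gap between the vehicle libraries was larger than the gap between the groups. GADD45A passed in 1 of 23 alternative settings, the model of the 2 groups alone. MDM2, a ubiquitin ligase gene, had 40.8, 41.6 and 39.8 CPM in irradiated vehicle libraries and 41.6 and 40.7 CPM in vehicle libraries (-0.02 ± 0.08), with overlapping groups. PLK2 had 0.36 ± 0.16, PLK3 0.25 ± 0.18 and BTG2 0.09 ± 0.22.

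The machinery of damage signalling and repair had medians near 0 and no call. Of 20 damage signalling genes 17 were below 0, with a median of -0.04, while in cells that received LBP 10 were below 0. For 28 homologous recombination genes the median was 0.02, with 12 below 0, and for 18 end joining genes -0.07, with 11 below 0. Of 26 apoptosis regulators none passed, 21 were above 0 and 5 below, and the median was 0.09. In cells that received LBP, 13 of these 26 were below 0. MDC1, the scaffold that gathers repair factors at breaks, came closest at -0.31 ± 0.06 (adjusted p = 0.063 by edgeR's quasi-likelihood test), with 72.6, 72.7 and 73.6 CPM in irradiated vehicle libraries and 94.3 and 87.1 CPM in vehicle libraries. Its groups did not overlap, and it passed in 1 of 23 alternative settings, DESeq2. BRCA1 had -0.16 ± 0.09 and the histone variant gene H2AX -0.20 ± 0.08.

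JUND was the 1 called gene among 27 immediate early genes, whose median was 0.33, with 25 of 27 above 0. FOSB had 2.97, 4.06 and 4.93 CPM in irradiated vehicle libraries and 1.61 and 2.05 CPM in vehicle libraries (1.12 ± 0.42), and JUN had 90.3, 97.0 and 86.7 CPM in irradiated vehicle libraries and 57.5 and 67.8 CPM in vehicle libraries (0.54 ± 0.20). Neither passed, and JUN did in 2 of 23 alternative settings. Of 22 genes of ERK feedback none passed, 17 were above 0 and 5 below, and the median was 0.31, with DUSP8, a MAP kinase phosphatase, at 1.14 ± 0.24 (adjusted p = 0.0886 by edgeR's quasi-likelihood test). DUSP8 passed in 6 of 23 alternative settings. Of 27 NF-kB and cytokine genes none passed, 23 were above 0 and 4 below, and the median was 0.28. CXCL8, a neutrophil chemokine, had 19.3, 36.1 and 39.8 CPM in irradiated vehicle libraries and 9.37 and 25.0 CPM in vehicle libraries, with overlapping groups.

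Among 32 interferon-stimulated genes the median was -0.17 with 28 below 0, and among 20 heat shock genes it was -0.11 with 17 below 0, without any call. The medians were 0.01 for 19 basal keratinocyte genes, -0.00096 for 21 differentiation genes, 0.05 for 11 activation keratins and alarmins, 0.01 for 28 NRF2 genes, -0.01 for 30 integrated stress response genes and 0.04 for 21 genes of unfolded proteins. KRT14, the basal keratin, had 0.03 ± 0.10, and KRT10, a keratin of differentiating cells, had 60.7, 57.5 and 58.6 CPM in irradiated vehicle libraries and 45.9 and 52.2 CPM in vehicle libraries (0.26 ± 0.07, adjusted p = 0.379 by edgeR's quasi-likelihood test). Mitochondrially encoded genes had a median of -0.09, none of 13 had groups that did not overlap, and irradiated vehicle replicate 3 held the lowest mitochondrial share.

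The cells that received LBP allowed the same irradiation to be read in libraries outside the contrast that chose the 60 lower features, although the shared fit takes its estimate of the spread from all 10. There, 57 of 60 were below 0 (49.5% of all features), 53 had every irradiated LBP library lower than both LBP libraries (14% of all features) and 17 passed with a lower value. Of all features 0.142% passed there, 0.128% with a lower value. AURKA had -1.10 ± 0.09 (adjusted p = 0.000222 by edgeR's quasi-likelihood test), CCNF -1.03 ± 0.09, FAM83D -0.99 ± 0.09, CENPA -0.87 ± 0.09 and CCNB1 -0.69 ± 0.08 in irradiated LBP over LBP cells. The median of the 60 was -0.47 with LBP and -0.68 without, but the features were chosen by their values without LBP, so the sizes are not compared. PIF1, PLK1, CENPF and MKI67 had -0.90 ± 0.16, -0.72 ± 0.13, -0.36 ± 0.09 and -0.29 ± 0.09 with LBP and did not pass there.

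None of the 60 lower features passed the test of the difference between the arms, in which 2 of 14799 features passed (0.0135%) and 8.2% had an unadjusted p under 0.05. The count at an unadjusted p under 0.05 among the 60 was 18. The 60 were chosen by their values without LBP, which enter this difference, so the count is not compared with that share. Among the higher genes, JUND had 38.9, 24.1 and 38.2 CPM in irradiated LBP libraries and 32.1 and 23.7 CPM in LBP libraries (0.28 ± 0.18), with overlapping groups. UGT1A1 had 0.12 ± 0.16 with LBP. Neither passed, nor did their differences between the arms. The 7 mitotic lists together had a median of -0.28 with LBP, with 14 of 128 lower.

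**Figure D5:**
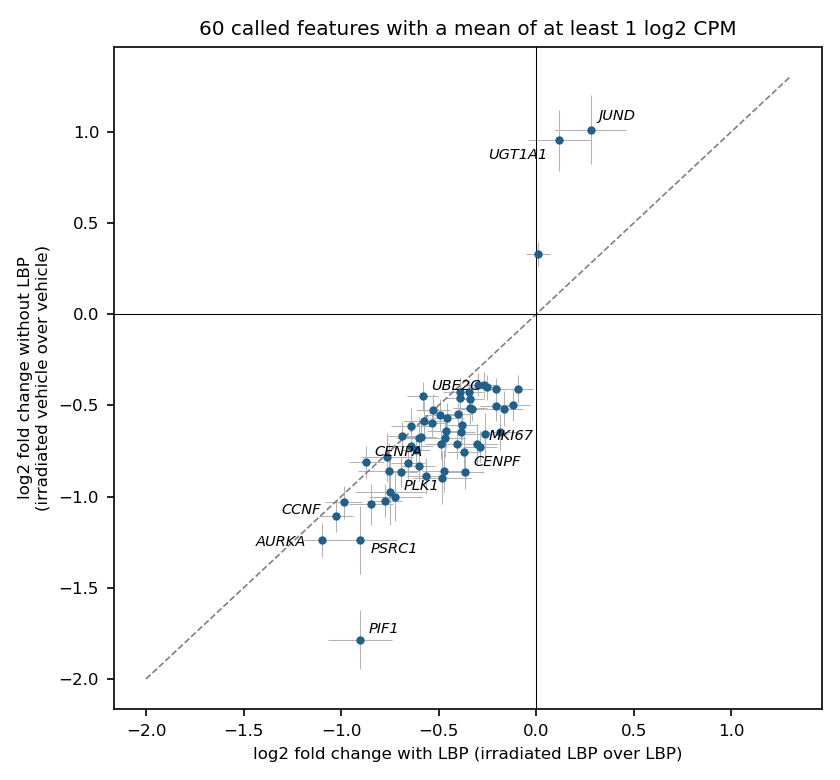
Log2 fold change of irradiated vehicle over vehicle (vertical axis) against that of irradiated LBP over LBP (horizontal axis) for the 60 called features, of 65, with a mean of at least 1 log2 CPM, with bars of 1 SE and a dashed line of equal values. Nearly all lower genes, such as AURKA (-1.24 and -1.10), lie at negative values on both axes, while JUND and UGT1A1 lie high at values of 0.28 and 0.12 on the horizontal axis. The vertical values chose the features.

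Just past the threshold, 21 features had an adjusted p between 0.05 and 0.1, of which 14 were lower and 8 of these were on the mitotic lists: WEE1, SPAG5, ESPL1, ARHGEF39, KIF14, DEPDC1B, ANLN and CCNB2. Just inside it were HMMR (0.0475) and HMGB2 (0.0458). Fold changes also moved slightly with gene length, taken as the length implied by counts and FPKM. Features with a mean of at least 1 log2 CPM were divided into 5 equal classes. The median log2 fold change was 0.03 in the shortest and -0.03 in the longest genes, and in the LBP arm it was -0.13 and 0.06. From the shortest to the longest class, 7, 8, 21, 11 and 10 called lower genes were counted, without those below that mean.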

How the data were processed

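RNA from 10 HaCaT samples was extracted with Trizol 3 h after exposure, per the labels' protocols, and circularised libraries were made from PCR-amplified cDNA. Per the submitters' processing notes, HISAT2 and GRCh38 were used, without versions; no source used here states the counting tool, strand setting or annotation. The authors deposited raw counts for each feature, without scaling, and FPKM, which divides them by length and depth. Of counts from 1 to 10, 59.7% were even, so some pairs may be counted as 2. A floor of 3 counts corresponds to 0.0476 to 0.0942 CPM per library and covers counting error only.

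The test was that of edgeR 4.0.16, run in R 4.3.3 (filterByExpr with a minimum count of 10, TMM scaling, glmQLFit and glmQLFTest, 1 mean per group over all 10 libraries, 6 residual degrees of freedom, Benjamini-Hochberg adjustment over all tested features). Every adjusted p and SE comes from this fit unless another tool is named. The coefficient of variation between libraries was 11.5%. The contrasts were irradiated vehicle over vehicle, irradiated LBP over LBP and the difference between them. Counting noise did not account for the spread between replicates (chi-square per degree of freedom of 17.9 or more in every group). Alternatives were other scalings, filters, DESeq2 1.42.0, limma 3.58.1 on log2(FPKM + 0.1) and log2(FPKM + 1), a replicate block, a length trend and leaving out each library. No columns belonged to other samples.

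The members and gene lists were chosen with earlier results of these data known. By the naming rule, every called feature may be named, with values per library for the higher ones and the 20 lowest at a mean of at least 1 log2 CPM, besides a fixed set, the 4 or fewer smallest p of each list and features called in the difference between arms. Positions come from GENCODE v29 on GRCh38, which gave 1 position for 99.2% of named features, and promoters from RefSeq on GRCh38.p14. Of 886 list symbols, 885 were in the table. Some of the called or listed genes are not reported here.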

Additional observations from a re-analysis of the deposited data

Results flagged for a closer look

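The effect of irradiation differed between cells without and with LBP for 2 features, by the test of the difference itself (edgeR's quasi-likelihood test with Benjamini-Hochberg adjustment). AC008982.1 (adjusted p = 0.00611) had 0.54, 0.72 and 0.61 CPM in irradiated vehicle libraries and 0 counts in both vehicle libraries, while in cells with LBP it had 0 counts in all 3 irradiated LBP libraries and was at least 6.33-fold lower there than in LBP libraries, taking 3 counts in each library as the limit of detection (3.17-fold with 6 counts). It overlaps HNRNPL and ECH1 on the same strand. PDE8B, encoding a cyclic AMP phosphodiesterase (adjusted p = 0.00441), had 0.91, 1.27 and 0.86 CPM in irradiated vehicle libraries and 0.97 and 0.88 CPM in vehicle libraries, whereas it had 0 counts in both LBP libraries and was at least 19.1-fold higher in irradiated LBP libraries (9.54-fold with 6 counts). It shares 216676 bases with AC022414.1 on the same strand. The part of read division among overlapping genes in these values was not tested.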

How the results depend on the processing

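All 65 called features kept their direction in each of the 23 alternative settings that gave them a value, and 20 kept their call in all 23, among them AURKA, CCNF, PIF1, KIF18A, FAM83D, GTSE1, CCNB1, CENPA, CENPF and MKI67. Counts moved more. Without LBP, DESeq2 called 129 features (35 higher, 94 lower), a model of the 2 groups alone 109 (27 higher, 82 lower), limma on log2(FPKM + 0.1) 41 (3 higher, 38 lower) and on log2(FPKM + 1) 37 (2 higher, 35 lower). The higher count was 10 without a filter on low counts and 8 with the length trend removed. Lower genes of the mitotic lists, a count added after the data were seen, numbered 29 and 28 with limma at 0.1 and 1, against 45. With LBP, the count of 21 became 184 with DESeq2, 45 without a filter, 10 with its own groups alone, 36 with robust estimation, 38 with the length trend removed, and 11 and 10 with limma. The difference between arms gave 2 features, 16 with DESeq2, 7 without a filter, 1 at a CPM of at least 1 and 4 with limma at 0.1. It could not be fitted from 2 groups alone.

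Leaving out 1 library gave 25 to 75 called features without LBP (1 to 11 higher, 24 to 67 lower, 19 to 48 on the mitotic lists), 8 to 51 with LBP and 0 to 5 in the difference; 0 was without LBP replicate 2. The cause of these moves was not tested. Deviations from the group mean had correlations of -0.07 and -0.09 between same-numbered irradiated vehicle and vehicle libraries. Over all pairs of groups they ran from -0.38 to 0.31. In a group of 2 libraries the deviations mirror each other, so these values cannot decide whether the numbers pair libraries. With the replicate block the counts were 56 without LBP (4 higher, 52 lower, 41 on the mitotic lists), 31 with LBP and 1 in the difference. The 2 vehicle libraries limit precision: the median SE was 0.10 on the log2 scale for features with a mean of at least 1 log2 CPM. The bounds with 6 counts and with 1 library left out were added after the data were seen.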
